A study of Mus musculus with 6 samples.

Results

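The genes described here are 40 genes of the cell division cycle, grouped by the phase in which they act, measured in mature thymic natural killer T (NKT) cells from wild type mice and mice deficient in DOCK8. NKT cells are T cells that recognise lipids presented by CD1d, and DOCK8 is a guanine nucleotide exchange factor for CDC42 that acts on the actin cytoskeleton of lymphocytes. The DOCK8-deficient group came from a mouse strain that the labels call Captain Morgan, the control group was wild type, and both were on a C57BL/6 background and untreated as far as the labels say. The cells of both groups were mature thymic NKT cells carrying CD44 and NK1.1, and neither the age of the mice nor whether a sample pooled several animals is given in the sources used here. Each group held 3 biological replicates, measured on 1 Illumina mouse array each. A p-value here weighs a difference only against the spread of samples within groups, which may be technical. The limma test moderates that spread over all genes.

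The members were taken by symbol from the platform annotation: 14 genes of DNA replication, 18 genes of mitosis, and 8 genes of G1 control or linked to growth. A gene was measured when a probe named for it alone had a detection p-value under 0.05 on at least 3 of the 6 arrays, and its brightest such probe was used. Of the 40 genes, 38 had a probe named for them alone and 28 were measured, out of 9060 genes measured in all. Mki67, the gene of the Ki-67 proliferation antigen, and Ccnb1, the gene of the mitotic cyclin B1, were not analysed here. The 28 measured members comprised 12 of 14 replication genes, 9 of 18 mitotic genes and 7 of 8 G1 and growth-linked genes. Each of the 28 was detected on at least 1 array of each group.

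Cells enter the cycle when D-type cyclins with the kinases CDK4 and CDK6 inactivate the retinoblastoma proteins and release the E2F transcription factors, which switch on the genes of DNA replication. The mitotic genes follow later, through a B-Myb and FOXM1 complex that binds a short promoter element called the CHR, often beside CCAAT boxes. In the thymus, NKT cell precursors divide soon after selection, whereas the mature NK1.1+ cells are largely resting. A transcript level in a bulk sample cannot tell fewer dividing cells from less RNA in each of them.

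The promoters of 5 members are shown to make these elements visible, from the replication genes Cdc6, Mcm2 and Mcm6 and the mitotic genes Cdk1 and Top2a. Each is the stretch of 250 bases upstream of the RefSeq transcript start in build GRCm38.p6, written 5′ to 3′ on the gene's strand. Capitals mark the E2F-type letters TTTCCCGC, TTTCGCGC, TTTGCCGC or TTTGGCGC, the CHR letters TTTGAA or TTCGAA, and the CCAAT box letters CCAAT, each searched on both strands. Cdc6 lies at chr11:98907901-98908150 on the plus strand, Mcm2 at chr6:88898781-88899030, Mcm6 at chr1:128359706-128359955, Cdk1 at chr10:69352913-69353162 and Top2a at chr11:99024190-99024439, the last 4 on the minus strand.
Cdc6: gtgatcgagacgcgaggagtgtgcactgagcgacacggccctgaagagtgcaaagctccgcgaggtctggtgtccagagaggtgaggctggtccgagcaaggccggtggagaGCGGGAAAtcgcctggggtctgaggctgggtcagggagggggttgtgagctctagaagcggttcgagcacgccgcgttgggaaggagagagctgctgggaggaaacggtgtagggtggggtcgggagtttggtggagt
Mcm2: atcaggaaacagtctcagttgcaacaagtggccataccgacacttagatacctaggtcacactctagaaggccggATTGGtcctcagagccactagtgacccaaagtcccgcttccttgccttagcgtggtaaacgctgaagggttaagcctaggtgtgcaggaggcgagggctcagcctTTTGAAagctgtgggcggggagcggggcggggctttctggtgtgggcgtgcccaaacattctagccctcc
Mcm6: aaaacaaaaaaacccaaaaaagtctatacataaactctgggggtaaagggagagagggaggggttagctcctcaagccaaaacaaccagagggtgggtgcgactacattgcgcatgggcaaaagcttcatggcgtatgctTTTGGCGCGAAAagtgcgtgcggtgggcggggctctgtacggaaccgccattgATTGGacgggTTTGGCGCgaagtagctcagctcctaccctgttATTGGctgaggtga
Cdk1: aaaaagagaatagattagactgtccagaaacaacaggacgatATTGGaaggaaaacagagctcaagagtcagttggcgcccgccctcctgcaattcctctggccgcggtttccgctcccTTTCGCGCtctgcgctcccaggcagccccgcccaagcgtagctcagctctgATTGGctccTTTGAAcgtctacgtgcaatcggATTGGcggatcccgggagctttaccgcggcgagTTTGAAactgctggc
Top2a: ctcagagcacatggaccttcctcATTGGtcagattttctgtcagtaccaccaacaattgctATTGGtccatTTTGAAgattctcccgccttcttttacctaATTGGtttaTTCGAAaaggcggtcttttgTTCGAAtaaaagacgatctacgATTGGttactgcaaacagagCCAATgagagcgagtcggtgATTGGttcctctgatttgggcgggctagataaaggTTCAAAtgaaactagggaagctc
In Mcm6 the first run of capitals holds 2 overlapping E2F-type matches, 1 on each strand.

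The letters were unevenly spread over the phases. A CHR match stood in 8 of the 15 mitotic members with a promoter entry (53.3%), in 2 of the 12 replication members (16.7%), and in 19.6% of all 27025 genes with an entry. An E2F-type match stood in 4 of the 12 replication members (33.3%) and in 1 of the 15 mitotic members, Cdk1, against 2.16% of all genes. CCAAT boxes were found in 13 of the 15 mitotic members (86.7%) and in 8 of the 12 replication members (66.7%), against 37.5% of all genes. These counts describe letters in a fixed window, and no match says only that the letters are not in that window.

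The comparison asked whether transcripts of the replication and mitotic programmes differed between the groups. Most measured members read higher in DOCK8-deficient cells: 11 of 12 replication members with a median log2 difference of 0.25, and 9 of 9 mitotic members with a median of 0.57. Among the G1 and growth-linked members 3 of 7 read higher, with a median of -0.05. Over all 9060 genes, 49% read higher and the median difference was -0.0049. No member passed limma's test at an adjusted p under 0.05 over all genes (0 of 28, against 33 of 9060 genes, or 0.364%). At an unadjusted p under 0.05, 10 of the 28 measured members were higher (3 replication, 5 mitotic, and 2 G1 and growth-linked members) and 0 were lower. Over all genes 5.68% were higher and 5.66% lower by that rule. The 3 arrays of each group did not overlap for 9 members that read higher and 1 that read lower, against 8.61% and 8.5% of all genes. Top2a, Aurkb and Plk1 were detected on all 3 DOCK8-deficient arrays but on fewer wild type arrays. When detection on all 6 arrays was required, 24 members remained and the mitotic median was 0.50 over 6 genes. Of the 24, 8 were higher at an unadjusted p under 0.05 in limma (3 mitotic), against 6.31% of all genes.

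**Figure D1:**
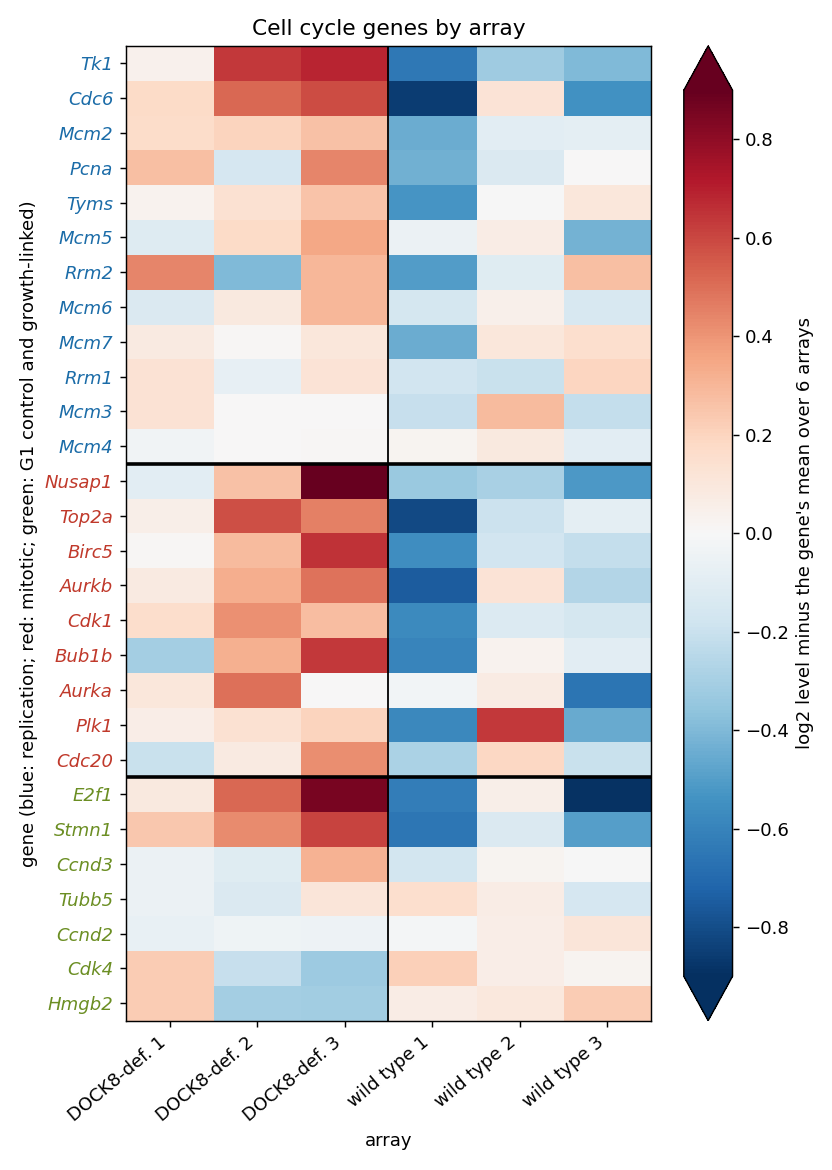
Each cell gives the log2 level of a gene (rows) on an array (columns) minus that gene's mean over the 6 arrays, with red above and blue below the mean, and horizontal lines part replication, mitotic, and G1 and growth-linked genes. Tk1, Cdc6, Mcm2, Cdk1, Birc5, Top2a, Nusap1, Stmn1 and E2f1 are higher on all 3 DOCK8-deficient arrays than on any wild type array, and wild type array 1 is the lowest of the 6 for 17 of the 28 genes.

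Tk1 encodes thymidine kinase of the nucleotide salvage pathway and had the smallest p of the replication members. Its log2 level was 7.65, 8.25 and 8.30 on DOCK8-deficient arrays 1, 2 and 3, and 6.97, 7.29 and 7.21 on wild type arrays 1, 2 and 3. All 3 DOCK8-deficient arrays lay above the highest wild type array. The difference was 0.91 ± 0.20 (limma's moderated SE, here and below, n = 3 per group), or 1.87-fold, with a limma adjusted p of 0.122 over all genes. Tk1 passed in the deposited log2 table (0.73, adjusted p = 0.041) and with a trended robust prior (adjusted p = 0.020), and over its 15 alternatives the adjusted p ran from 0.020 to 0.42. It read 0.46 without background correction and 0.34 with the mean of its detected probes (adjusted p = 0.42), so its size rests on the brightest probe. The other 2 detected Tk1 probes read 0.19 and -0.08, each detected on 2 or fewer arrays of a group.

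Cdc6 encodes the factor that loads the MCM helicase onto replication origins. It read 6.58, 6.93 and 7.002 on the DOCK8-deficient arrays and 5.56, 6.54 and 5.87 on the wild type arrays. The groups did not overlap, but wild type array 2 came close to DOCK8-deficient array 1. The difference was 0.85 ± 0.25 (1.80-fold, limma adjusted p = 0.25), and it was 0.25 without background correction.

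The helicase itself is a ring of the 6 proteins MCM2 to MCM7, each from its own gene. Mcm2 read 9.24, 9.28 and 9.34 on the DOCK8-deficient arrays against 8.63, 8.98 and 8.99 on the wild type arrays. Its groups did not overlap, and its difference was 0.42 ± 0.14 (1.33-fold, limma adjusted p = 0.32). The other subunits overlapped between groups and differed by 0.27 for Mcm5, 0.17 for Mcm6, 0.13 for Mcm7, 0.09 for Mcm3 and -0.01 for Mcm4, with limma adjusted p from 0.63 to 0.98. Mcm4 read 11.71, 11.75 and 11.75 on the DOCK8-deficient arrays and 11.76, 11.83 and 11.65 on the wild type arrays, with a 95% interval of the difference from -0.28 to 0.26. Its other 2 detected probes read -0.94 and -0.32 and the mean of its probes -0.42, and those of Mcm6 read from -0.18 to 0.07. Without wild type array 1 Mcm7 read -0.06 (adjusted p = 0.95), and with median scaling Mcm3 read -0.01. Subunits of the same complex thus gave unequal readings on these probes, but their differences from each other were not tested. Mcm2 alone among the 6 had groups without overlap, where 8.61% of all genes were higher and 8.5% lower without overlap.

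Pcna, the sliding clamp of the replicative polymerases, read 10.17, 9.75 and 10.34 on the DOCK8-deficient arrays and 9.47, 9.77 and 9.91 on the wild type arrays. Its groups overlapped, since DOCK8-deficient array 2 lay below wild type arrays 2 and 3, and the difference was 0.37 (95% interval -0.07 to 0.81), or 0.24 without DOCK8-deficient array 3. Tyms, thymidylate synthase of the de novo pathway, read 7.74, 7.85 and 7.97 against 7.18, 7.71 and 7.82, a difference of 0.28 (-0.14 to 0.71). For Tyms the overlap came from wild type array 3, while wild type array 1 was the lowest of the 6. The subunits of ribonucleotide reductase, which makes deoxynucleotides, differed by 0.12 for Rrm1 and 0.23 for Rrm2, the latter detected on 2 DOCK8-deficient arrays and 1 wild type array. Ccne1 and Ccne2, the genes of the E-type cyclins that start replication, were detected on 1 array of each group and were not tested.

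Among the mitotic genes, Cdk1 encodes the kinase that drives entry into mitosis. It read 6.47, 6.73 and 6.59 on the DOCK8-deficient arrays and 5.74, 6.19 and 6.15 on the wild type arrays. The groups did not overlap, and the difference was 0.57 ± 0.16 (1.48-fold, limma adjusted p = 0.22). The other Cdk1 probe above background read 0.31, with an adjusted p of 0.72 among all detected named probes, and without background correction the first read 0.16.

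Birc5, which encodes survivin of the chromosomal passenger complex, read 7.02, 7.30 and 7.66 against 6.45, 6.84 and 6.80. It was higher on every DOCK8-deficient array than on any wild type array, by 0.63 ± 0.19 on average (1.55-fold, limma adjusted p = 0.27), and its other detected probes read 0.48 and 0.23. Top2a, the topoisomerase that untangles sister chromatids, read 6.14, 6.67 and 6.55 against 5.28, 5.90 and 6.01. Its groups did not overlap, its difference was 0.73 ± 0.23 (1.65-fold, limma adjusted p = 0.27), and its second detected probe read 0.56. Without background correction Top2a read 0.19 and Birc5 0.26. Each Top2a probe was undetected on 1 wild type array, so the wild type level is in part a reading at background.

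Nusap1, a spindle microtubule protein, read 7.19, 7.55 and 8.26 on the DOCK8-deficient arrays and 6.96, 6.999 and 6.77 on the wild type arrays. The groups did not overlap, and DOCK8-deficient array 3 stood above the other 5 arrays (difference 0.76 ± 0.25, 1.69-fold, limma adjusted p = 0.32). Nusap1 read 0.46 without that array and 0.36 without background correction. Aurkb, the kinase of the chromosomal passenger complex, read 6.06, 6.30 and 6.46 against 5.23, 6.10 and 5.71. Here wild type array 2 exceeded DOCK8-deficient array 1, and the difference was 0.60 (95% interval 0.07 to 1.12, limma adjusted p = 0.38). Aurkb was undetected on 1 wild type array, and it read 0.37 without wild type array 1 and 0.15 without background correction. The related centrosome kinase gene Aurka differed by 0.40, within 0.18 to 0.54 when an array was left out (0.18 without wild type array 3 and 0.25 without DOCK8-deficient array 2). The spindle checkpoint gene Bub1b differed by 0.44, within 0.23 to 0.70 (0.23 without DOCK8-deficient array 3, 0.25 without wild type array 1 and 0.70 without DOCK8-deficient array 1). Cdc20, an activator of the anaphase-promoting complex, differed by 0.20 on its brightest probe and by -0.24 on the other detected probe. All 3 of these genes overlapped between groups.

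Plk1, a kinase of mitotic entry and spindle assembly, had the largest p of the mitotic members. It read 5.71, 5.79 and 5.85 on the DOCK8-deficient arrays and 5.07, 6.29 and 5.19 on the wild type arrays. Wild type array 2, on which alone of the wild type arrays it was detected, was the highest of the 6, and the 95% interval of the difference ran from -0.42 to 0.96. The filter on dim probes also left out 7 mitotic genes with a named probe. Ccna2 and Ccnb2 (cyclins A2 and B2), Bub1 (a checkpoint kinase), Kif11 and Cenpe (spindle motors), Tpx2 (a spindle assembly factor) and Ube2c (the ubiquitin-conjugating enzyme of the anaphase-promoting complex) were detected on 0 of the 6 arrays. Their values are readings at background, from which no difference or lack of one can be read. With these readings counted in only to account for every member, 12 of 16 mitotic genes read higher and the median was 0.27, against 13 of 14 and 0.20 for the replication genes with Ccne1 and Ccne2 counted in.

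**Figure D2:**
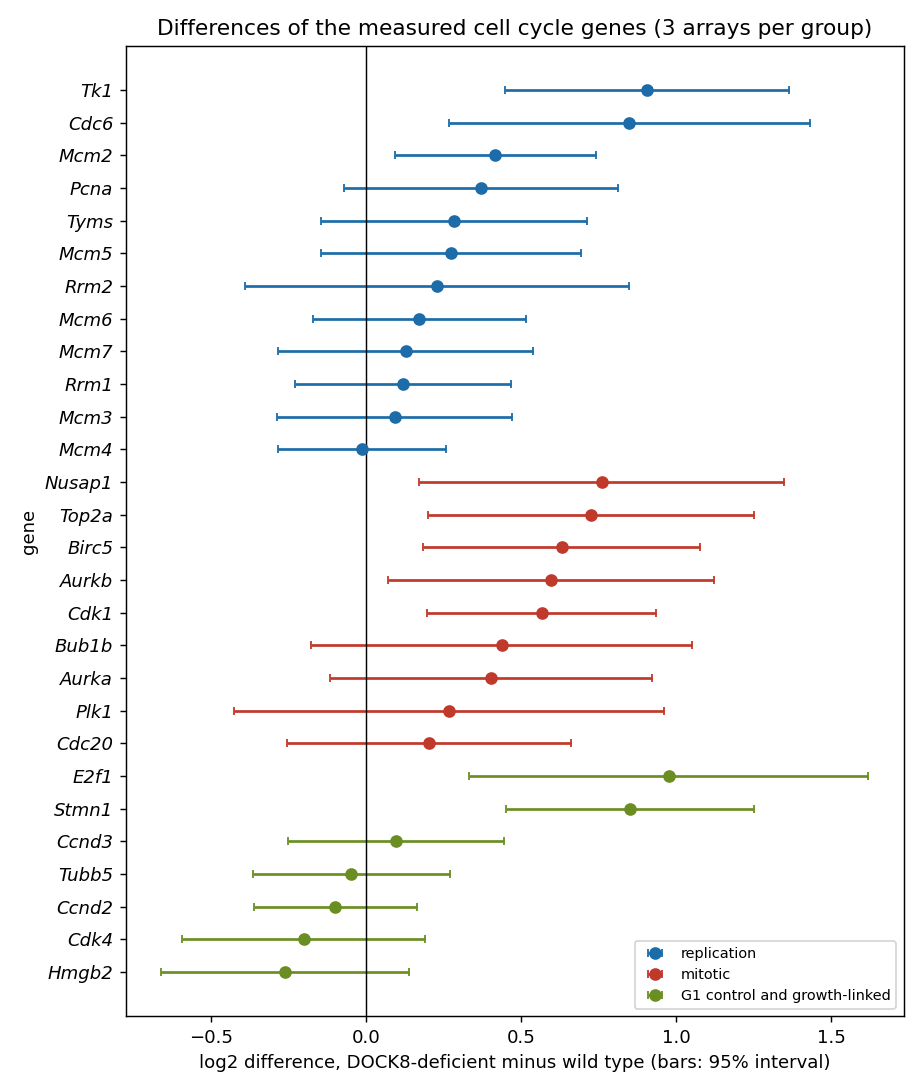
Points give the log2 difference of each measured gene, DOCK8-deficient minus wild type, with its 95% limma interval, in order of size within each phase. The intervals of 10 genes lie wholly above 0 and none lies wholly below it, while 0 of the 28 genes passed after adjustment over all 9060 genes.

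The G1 and growth-linked genes did not read alike. E2f1, the E2F factor that activates replication genes, read 7.48, 7.90 and 8.25 on the DOCK8-deficient arrays and 6.76, 7.44 and 6.50 on the wild type arrays. Its groups did not overlap, wild type array 2 lay just below DOCK8-deficient array 1, and the difference was 0.98 ± 0.28 (1.97-fold, limma adjusted p = 0.23). Without background correction E2f1 read 0.45. Stmn1, which encodes the microtubule-destabilising protein stathmin, read 8.39, 8.58 and 8.76 against 7.50, 8.02 and 7.66. It was higher on all 3 DOCK8-deficient arrays, by 0.85 ± 0.17 (1.80-fold), and had the smallest adjusted p of the members in limma, 0.101. Stmn1 passed without background correction (0.50, adjusted p = 0.027), in the deposited log2 table (0.72, adjusted p = 0.034) and with a trended robust prior (adjusted p = 0.012), and over its 15 alternatives the adjusted p ran from 0.012 to 0.57.

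The D-type cyclins and CDK4, which act upstream of E2F, had intervals that held 0. Ccnd2, a D-type cyclin, read 13.53, 13.56 and 13.55 on the DOCK8-deficient arrays and 13.58, 13.66 and 13.71 on the wild type arrays. It was the member whose groups did not overlap in the other direction, with a difference of -0.10 (95% interval -0.36 to 0.16, limma adjusted p = 0.80), and its other detected probes read -0.07 and -0.04. Ccnd3, the other measured D-type cyclin among the members, differed by 0.10 on its brightest probe and by 0.42 and -0.56 on the other 2. Its direction turned with the mean of its probes (-0.01) and without DOCK8-deficient array 3 (-0.03).

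Cdk4, the partner kinase of the D-type cyclins, read 10.24, 9.81 and 9.69 against 10.23, 10.07 and 10.03, a difference of -0.20 (95% interval -0.59 to 0.19). DOCK8-deficient arrays 2 and 3 were its lowest, and array 1 lay at the level of wild type array 1. Cdk6, the other partner kinase, was detected on 1 array, of wild type, and was not tested. Hmgb2, a chromatin protein abundant in dividing cells, read 10.78, 10.24 and 10.24 against 10.62, 10.65 and 10.78, with the same DOCK8-deficient arrays 2 and 3 lowest and a difference of -0.26 (-0.66 to 0.14). The tubulin gene Tubb5 read 12.62, 12.55 and 12.78 against 12.83, 12.74 and 12.52, and its difference of -0.05 (-0.36 to 0.27) turned to 0.00 in the deposited log2 table and to 0.02 without wild type array 1.

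By median, the replication and mitotic members were both highest on DOCK8-deficient array 3 and lowest on wild type array 1. Their order on DOCK8-deficient arrays 1 and 2 differed. The G1 and growth-linked members as a list were lowest on DOCK8-deficient array 2, though Stmn1 and E2f1 were higher on all 3 DOCK8-deficient arrays. The median deviation of the 28 members from each gene's own mean was 0.07, 0.14 and 0.30 on DOCK8-deficient arrays 1, 2 and 3 and -0.44, 0.05 and -0.15 on wild type arrays 1, 2 and 3. For the mitotic members it was 0.05, 0.32 and 0.45 against -0.57, 0.03 and -0.21, and for the replication members 0.10, 0.05 and 0.28 against -0.44, 0.02 and -0.09. For the G1 and growth-linked members it was 0.09, -0.11 and 0.11 against -0.02, 0.06 and -0.0044, with 2 of 7 above their own mean on DOCK8-deficient array 2 and 6 of 7 on wild type array 2. For the replication and mitotic members, wild type array 2 lay close to DOCK8-deficient array 1, and the spread within wild type was at least as wide as the distance between the groups. DOCK8-deficient array 3 was the highest array for 15 of the 28 members and wild type array 1 the lowest for 17. Without wild type array 1 the replication median was 0.11 and the mitotic median 0.42, and without DOCK8-deficient array 3 they were 0.15 and 0.46. With either array left out, 8 members were higher at an unadjusted p under 0.05, against 4.24% and 4.43% of all genes.

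**Figure D3:**
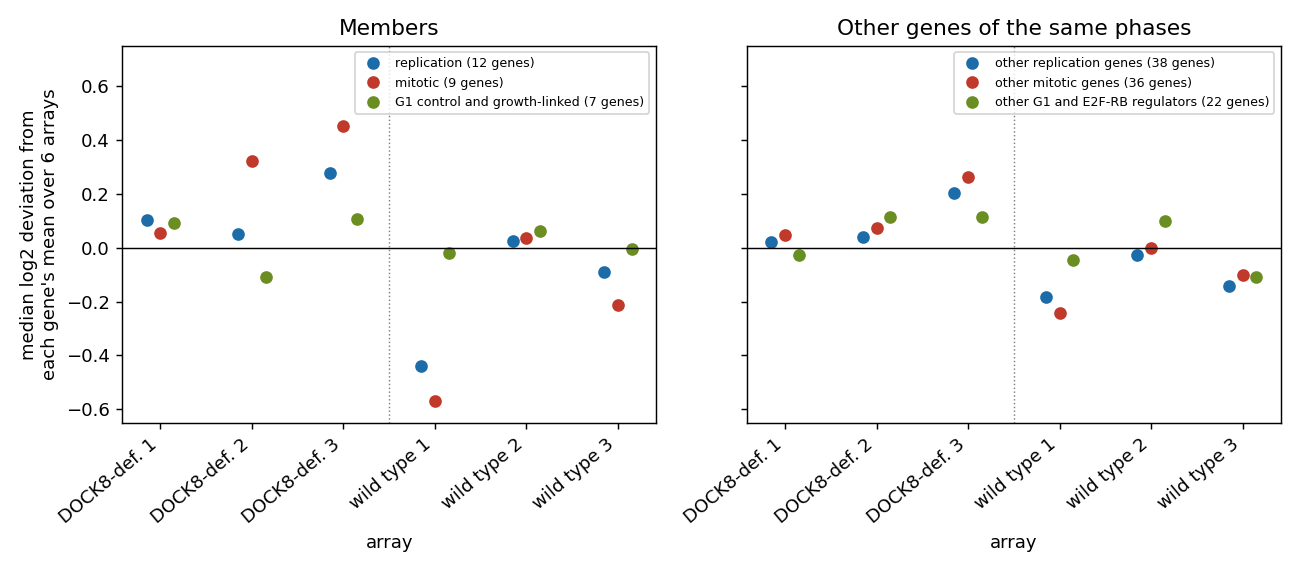
Points give, for each array, the median over a list's measured genes of the log2 level minus each gene's mean over the 6 arrays, for the members (left) and for other genes of the same phases (right). Replication and mitotic genes are lowest on wild type array 1 and highest on DOCK8-deficient array 3 in both panels, and on wild type array 2 they lie close to 0.

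The gap between mitotic and replication members depended on the background correction. Without it the medians were 0.15 for the replication and 0.16 for the mitotic members, in place of 0.25 and 0.57, and in the deposited log2 table they were 0.21 and 0.31. In the settings tried, the mitotic median stayed above the replication median, but the difference between the phases was not tested. Split by promoter letters, the 4 measured mitotic members with a CHR match differed by a median of 0.50 and the 4 without by 0.52. The 4 measured replication members with an E2F-type match differed by a median of 0.22 and the 7 without by 0.28. Those with a match ran from 0.13 (Mcm7) to 0.85 (Cdc6), and those without from 0.09 (Mcm3) to 0.91 (Tk1).

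**Figure D4:**
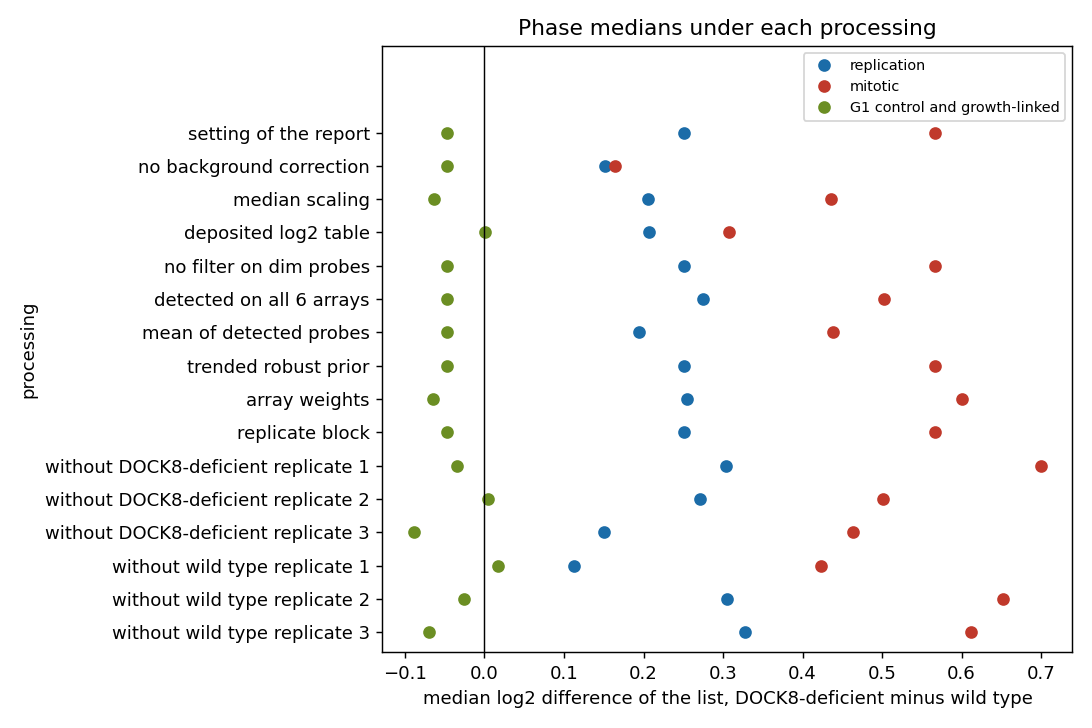
Points give the median log2 difference of the measured members of each phase under each processing, with rows for the setting of the report, 9 other settings and each array left out in turn. The mitotic median falls from 0.57 to 0.16 without background correction, where it meets the replication median of 0.15, and the G1 and growth-linked median stays between -0.09 and 0.02.

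Other genes of the same processes gave smaller shifts in the same direction. Of 38 measured replication genes outside the members 33 read higher, with a median of 0.22, and of 36 measured mitotic genes 28 read higher, with a median of 0.26. The lists held 45 and 63 genes, and the filter on dim probes left out 6 and 23 with a named probe. With those readings counted in, 36 of 44 replication genes read higher (median 0.20) and 41 of 59 mitotic genes (median 0.17). Over all genes 0 of these 38 and 36 genes, and 0 of the 22 other measured G1 regulators, passed limma's test in either direction. At an unadjusted p under 0.05, 8 replication genes were higher and 0 lower, 6 mitotic genes were higher and 1 lower, and 3 G1 regulators were higher and 2 lower, where all genes gave 5.68% higher and 5.66% lower. Among those higher, Ckap2 and E2f7 were undetected on every wild type array and so entered only through the DOCK8-deficient arrays. Chaf1a, Rfc3, Cenpk, Ncapg2, Cdca2, Kif15 and Cdkn1a were each detected on all 3 DOCK8-deficient arrays but on fewer wild type arrays. The counts are given as a description. The replication genes of smallest p were Uhrf1, a guide of maintenance methylation at replication forks (0.76, 95% interval 0.35 to 1.17, limma adjusted p = 0.15), the chromatin assembly factor gene Chaf1a (0.66), and the clamp loader subunit genes Rfc4 (0.54) and Rfc5 (0.55). Uhrf1 passed without background correction (0.60, adjusted p = 0.029), in the deposited log2 table (adjusted p = 0.048) and with a trended robust prior (adjusted p = 0.011), with a range of 0.011 to 0.72 over its 15 alternatives. Uhrf1 read 9.61, 9.87 and 10.08 on the DOCK8-deficient arrays and 8.81, 9.21 and 9.27 on the wild type arrays, without overlap. In its list 9 of 38 measured genes were higher without overlap and 1 lower, against 8.61% and 8.5% of all genes. Without background correction Chaf1a read 0.16, Rfc4 0.37 and Rfc5 0.30. The other detected Rfc4 probe read 0.23 with the correction.

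The other mitotic genes of smallest p were Ckap2, a spindle-associated protein gene, the centromere gene Cenpk (0.65), the phosphatase gene Cdc25b, which activates CDK1 (0.44), and the condensin II gene Ncapg2 (0.56). Ckap2 was undetected on every wild type array. By the background-corrected values its level in DOCK8-deficient cells was at least 1.17-fold higher (limma adjusted p = 0.12). Without background correction its log2 difference was 0.13, so the bound holds for the corrected values only. Such a bound divides the brighter group's mean by a floor for the dim group, averaged over its arrays, where each array gives either the gene's reading or its dimmest detected probe, whichever is greater. Cenpk and Ncapg2 were each undetected on 1 wild type array. Without background correction Cenpk read 0.17, Cdc25b 0.17 and Ncapg2 0.13. All 4 named genes, picked for their small p, read without overlap between groups. In the whole list 6 of 36 measured genes were higher without overlap and 1 lower, against 8.61% and 8.5% of all genes.

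Regulators around E2F read in both directions. E2f7, an E2F factor that represses E2F target genes, read 6.22, 6.39 and 5.73 on the DOCK8-deficient arrays and was undetected on every wild type array. By the background-corrected values its level was at least 1.64-fold higher in DOCK8-deficient cells (limma adjusted p = 0.093). The activator gene E2f2 read 7.94, 7.63 and 7.64 against 6.74, 7.65 and 6.83, a difference of 0.66 (95% interval 0.10 to 1.23, adjusted p = 0.37), with 0.93 on its second detected probe. E2f2 overlapped through wild type array 2, which stood at the DOCK8-deficient level. Myc, a growth-promoting transcription factor gene, read 7.18, 6.60 and 6.42 against 7.21, 7.14 and 7.66, a difference of -0.61 (-1.14 to -0.08, limma adjusted p = 0.38), and overlapped through DOCK8-deficient array 1. Without background correction E2f7 read 0.24, E2f2 0.30 and Myc -0.24, and in the deposited log2 table E2f7 read 0.54. Both E2f7 readings lie below its bound, which thus holds for the corrected values only.

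Inhibitors of cyclin-dependent kinases were also split. Cdkn1a, which encodes p21, read 6.13, 6.22 and 6.63 on the DOCK8-deficient arrays and 5.07, 5.67 and 5.08 on the wild type arrays, of which 1 was above background. Its groups did not overlap and the difference was 1.05 (95% interval 0.56 to 1.54, limma adjusted p = 0.098), with wild type readings partly at background. Cdkn1a read 0.26 without background correction and 0.54 with the mean of its probes, since its second, dim probe read 0.02. Cdkn2c, which encodes the CDK4 and CDK6 inhibitor p18, read 6.72, 7.58 and 7.61 against 7.93, 7.99 and 7.92. It was lower on all 3 DOCK8-deficient arrays, with a difference of -0.65 (-1.20 to -0.10, limma adjusted p = 0.36). A dimmer Cdkn2c probe read -0.80, with an adjusted p of 0.15 among all detected named probes, and the brightest read -0.36 without DOCK8-deficient array 1 and -0.31 without background correction. Cdkn1b (p27) and Cdkn2d (p19) overlapped between groups and differed by 0.16 and 0.07, and Cdkn2d turned to -0.03 with median scaling.

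**Figure D5:**
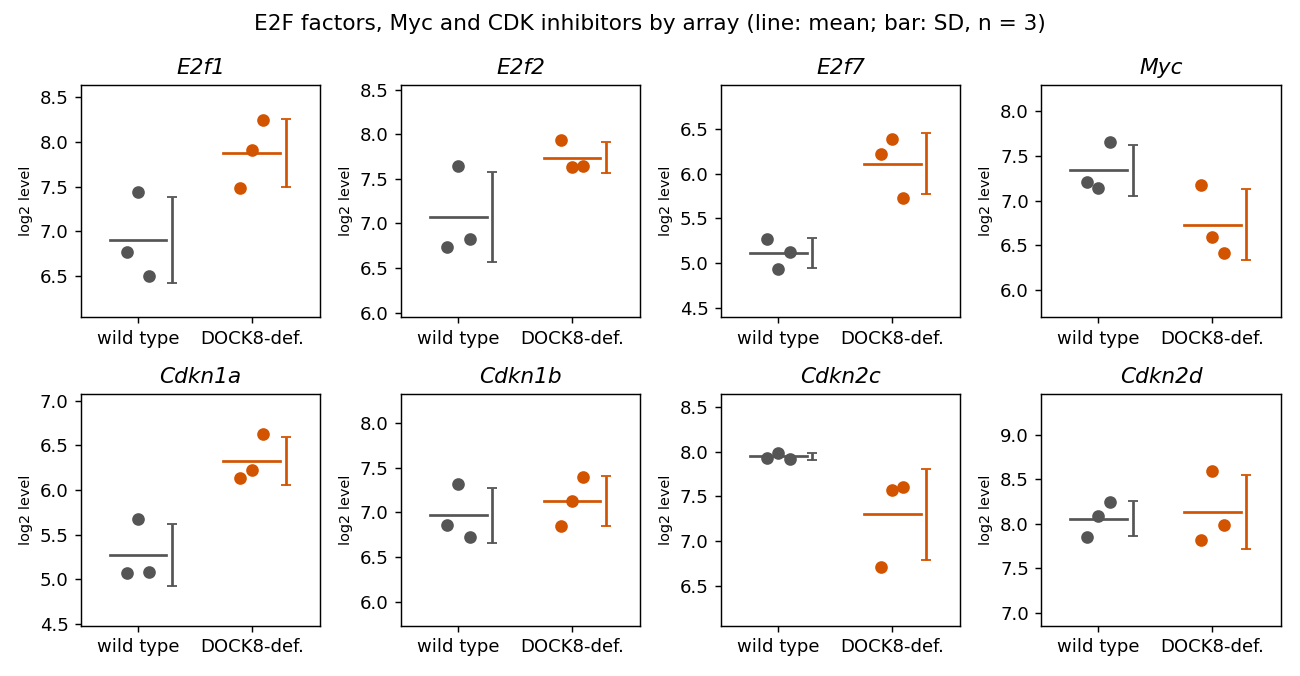
Points give the log2 level of 8 regulators on each array of wild type (grey) and DOCK8-deficient (orange) samples, with the mean as a line and the SD (n = 3) as a bar. The groups of E2f1, E2f7 and Cdkn1a (higher) and of Cdkn2c (lower) do not overlap, with E2f7 at background on all wild type arrays, and those of E2f2, Myc, Cdkn1b and Cdkn2d do.

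Facts of the arrays stand beside these values. The arrays detected 36.4% to 40.7% of 45281 probes, array medians of the scanner signal were 183 to 235, and correlations between arrays over the 9060 genes were 0.976 to 0.986. The Dock8 probe used differed by -0.01, so the grouping rests on the labels. All 8 of 8 mature NKT cell markers were measured, and their summed normalized level was 32900.1 to 34361 in DOCK8-deficient and 31641 to 33434 in wild type arrays. Of 13 markers of double-positive thymocytes, a stage that includes dividing cells, 8 were measured and all 8 read lower in DOCK8-deficient cells (median -0.49). Their summed level was 2308 to 2621 against 2646 to 3244, and Rag2, Ptcra and Cd8a were undetected. Dntt was undetected on every DOCK8-deficient array and so entered only through the wild type arrays. By the background-corrected values it was at least 2.42-fold lower in DOCK8-deficient cells (limma adjusted p = 0.028). By median deviation, rather than summed level, the 8 measured markers were lowest on DOCK8-deficient array 3 (-0.57), where the cell cycle members were highest. Not every marker followed. Cd8b1 was highest on that array, at 10.05, 10.50 and 10.62 on the DOCK8-deficient arrays against 10.49, 10.35 and 10.55. Bcl6 read 8.47 there and 8.44 on wild type array 2.

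Myeloid markers gave 6 of 11 measured, with sums of 5316 to 6906 against 5593 to 5845, made up mostly of Fcer1g, and Itgam, Itgax, Adgre1 and Cybb undetected. The macrophage gene Mpeg1 read 7.07, 6.82 and 6.27 on the DOCK8-deficient arrays and 6.22, 5.74 and 5.91 on the wild type arrays, without overlap (difference 0.76, limma adjusted p = 0.25), and the lysozyme gene Lyz2 differed by 0.70 with overlap (limma adjusted p = 0.52). Mpeg1 was highest on DOCK8-deficient array 1, Lyz2 on array 2, and Fcer1g on array 3, where the cell cycle members were also highest. Fcer1g read 12.28, 12.54 and 12.62 on the DOCK8-deficient arrays and 12.19, 12.45 and 12.27 on the wild type arrays. Mpeg1 and Lyz2 read far lower on every array, and which cells gave the Fcer1g signal was not tested. The neutrophil genes S100a8 and S100a9 were detected on DOCK8-deficient array 2 and wild type arrays 1 and 3 only, S100a8 at 8.80, 9.07 and 8.95 against 4.68 to 5.39 on the others. Erythroid markers had 2 of 6 measured, with sums of 665 to 1057 against 479 to 640 and Alas2 and Slc4a1 undetected. These sums were made up mostly of Tfrc, and which cells gave its signal was not tested. Of these 2, Tfrc read 9.44, 9.34 and 9.13 against 8.75, 8.63 and 8.95, without overlap (0.53, limma adjusted p = 0.21). The haemoglobin gene Hba-a1 overlapped between groups (0.60, limma adjusted p = 0.69). B cell markers had 2 of 7 measured, with sums of 81.9 to 115 against 75.0 to 127 and Ms4a1, Pax5 and Cd22 undetected. Immature NKT cell markers had 3 of 6 measured, with sums of 829 to 1253 against 854 to 968 and Cd24a, Ccr7 and Ccr9 undetected. The part of these other cells in the cell cycle values was not tested.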

How the data were processed

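RNA of 6 samples was labelled as biotinylated cRNA and hybridised to Illumina mouse arrays, per the labels' protocols. Samples were grouped by title. Per the file headers, each probe of the deposited scanner table has a linear, non-normalized intensity with its detection p-value. A second deposited table holds log2 values, and the labels used here do not state how these were normalized. Intensities were background corrected and quantile normalized with neqc (limma 3.58.1, R 4.3.3; offset 16). Of 45281 probes, 34885 were named for 1 gene by the platform annotation, 18 for several and 10378 none listed, and 34807 of the named probes matched a RefSeq gene identifier (GRCm38.p6). Differences (DOCK8-deficient minus wild type) were tested 2-sided with lmFit and eBayes of limma and adjusted by Benjamini-Hochberg over 9060 genes. The functions were tested on simulated data. Other probes of a gene were adjusted over 14559 detected named probes. Of 21 other detected probes of 13 members, 6 differed in the opposite direction, 0 of them with an adjusted p under 0.05. The members and gene lists were chosen with earlier results of these data known. Values on every array were given for Pcna, Mcm2, Cdk1 and Top2a and, in each phase, the 5 members of smallest p and the 1 of largest p; of other pathway lists the 4 of smallest p were named, with Myc and the inhibitors of cyclin-dependent kinases. The number of arrays limits the precision. Promoter sequences are from RefSeq, which had entries for 33 of the 40 members.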

Additional observations from a re-analysis of the deposited data

How the results depend on the processing

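In place of 33 genes, 124 passed without background correction, 126 in the deposited log2 table, 62 with median scaling, 54 when detection on all 6 arrays was required, 165 with a trended robust prior, 0 with the replicate block (409 higher and 424 lower at an unadjusted p under 0.05), and 2 to 15 with an array left out. In place of 0 members, 1 passed without background correction, 2 with a trended robust prior and 2 in the deposited log2 table; Uhrf1 was the 1 other pathway gene to pass, in each of these 3. Members higher at an unadjusted p under 0.05 numbered 6 with median scaling (1.61% of all genes), 12 with the replicate block (4.51%) and 8 to 11 with an array left out (4.24% to 7.12%). Members lower numbered 0 to 2 with an array left out, the 2 without DOCK8-deficient array 1 (7.28% of all genes). The mitotic median was 0.16 without background correction and 0.31 in the deposited log2 table. With an array left out it was 0.42 to 0.70, the replication median 0.11 to 0.33, and the G1 and growth-linked median -0.09 to 0.02. Directions turned for genes near 0: with median scaling Mcm3 (-0.013) and Cdkn2d (-0.027); in the deposited log2 table Mcm4 (0.017) and Tubb5 (0.0011); with the mean of probes Cdc20 (-0.021) and Ccnd3 (-0.013). With an array left out, Mcm4 ran from -0.062 to 0.029, Mcm7 from -0.064 to 0.24, Tubb5 from -0.13 to 0.017, Ccnd3 from -0.034 to 0.18 and Cdkn2d from -0.16 to 0.23. The cause was not tested. The files name no slides, so no slide block was run. The block moved no member past the threshold. Same-numbered samples of the groups deviated from their group means with correlations of 0.04, -0.15 and -0.27, so the numbers were not taken as pairs. Dim probes limit the mitotic genes, of which 7 were at background.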
